A study of Mus musculus with 8 samples.

Results

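The keratins Krt6a, Krt6b, Krt16, Krt17 and Krt75 were examined in whole back skin of mice lacking Med1 in their keratinocytes. They are keratins of the companion layer and outer root sheath of the hair follicle, and all but Krt75 are also known as keratins of wounded epidermis. Members were every probe whose annotated symbol was 1 of these 5 genes, which gave 9 of the 25697 probes on the array. The 5 genes were among 16593 annotated genes. Skin came from 10-week-old C57BL6 mice. In the 4 KO mice both Med1 alleles were floxed and a K14-driven Cre removed the gene. The 4 Control mice carried the same floxed Med1 alleles, and per the study's methods such controls had no Cre. Every mouse in both groups thus carried floxed Med1, and the Krt14 promoter limits Cre to Krt14-expressing epithelial cells, while RNA came from the whole skin with its dermis and muscle. Each mouse went on 1 bead array of its own.

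Keratins build the intermediate filaments of epithelial cells from pairs of a type II and a type I protein. Krt6a, Krt6b and Krt75 encode type II keratins. Krt16 and Krt17 encode type I keratins, which pair with them. In resting epidermis the basal layer is known for the pair Krt5 and Krt14 and the layers above it for Krt1 and Krt10. Krt6a, Krt6b, Krt16 and Krt17 are switched on in epidermis at a wound edge and in hyperproliferative skin, and in unwounded skin they are mainly found in hair follicles, nails and glands. Krt75 marks the companion layer, a single sheet of flat cells between the outer and the inner root sheath. The companion layer belongs to the growing follicle, and the hair cycle phase of these samples is not given by the labels. The study's methods for wounding male mice state that KO skin always held patches of growing follicles among resting ones. Control skin there was mostly resting. For keratinocytes isolated at 10 weeks, the paper describes an abnormal shift to the growing phase in KO skin, with control skin resting.

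The arrays detected 14593 to 15149 probes each, with median raw signals of 152.2 to 193.6. Between arrays, r over probes was 0.994 to 0.995 within a genotype and 0.954 to 0.958 across genotypes. The brightest probe of Med1 read 8.26, 7.80, 8.39 and 8.45 in the 4 KO mice, against 9.05, 8.99, 8.92 and 9.10 in the 4 Control mice, on the normalized log2 scale. It fell by 0.79 ± 0.14 in KO skin (SE, adjusted p = 0.000649), and every KO mouse lay below every Control mouse. A second Med1 probe fell by 0.69 ± 0.18 with overlapping groups (adjusted p = 0.00861), and another did not pass the test (−0.23 ± 0.17, adjusted p = 0.252). The remaining Med1 probe was detected on no array and was not tested. Whether these probes lie in the deleted exons was not analysed here. The epidermal keratins Krt5, Krt14 and Krt10 were detected on every array of both groups.

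All 9 member probes were higher in KO skin, and for each of them all 4 KO mice lay above all 4 Control mice. At the brightest probe of each gene the log2 changes were 2.49 for Krt75, 2.10 for Krt6b, 2.01 for Krt16, 1.85 for Krt6a and 0.80 for Krt17. The changes are KO minus Control after background correction and quantile normalization, and a probe was called at a Benjamini-Hochberg adjusted p under 0.05 in a limma fit over 15120 probes. The genotypes differed widely, since 62.7% of tested probes were called and 30.7% were called higher in KO skin. In 28.5% of tested probes all KO arrays lay above all Control arrays, and 7.65% were called with at least a 2-fold increase. Of the 9 member probes 7 rose at least 2-fold, and they belonged to 4 of the 5 genes. The median change over the 5 genes was 2.01, against −0.04 over all genes tested. In whole skin a change in the number of cells that express a gene and a change in its RNA per cell cannot be told apart.

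**Figure D1:**
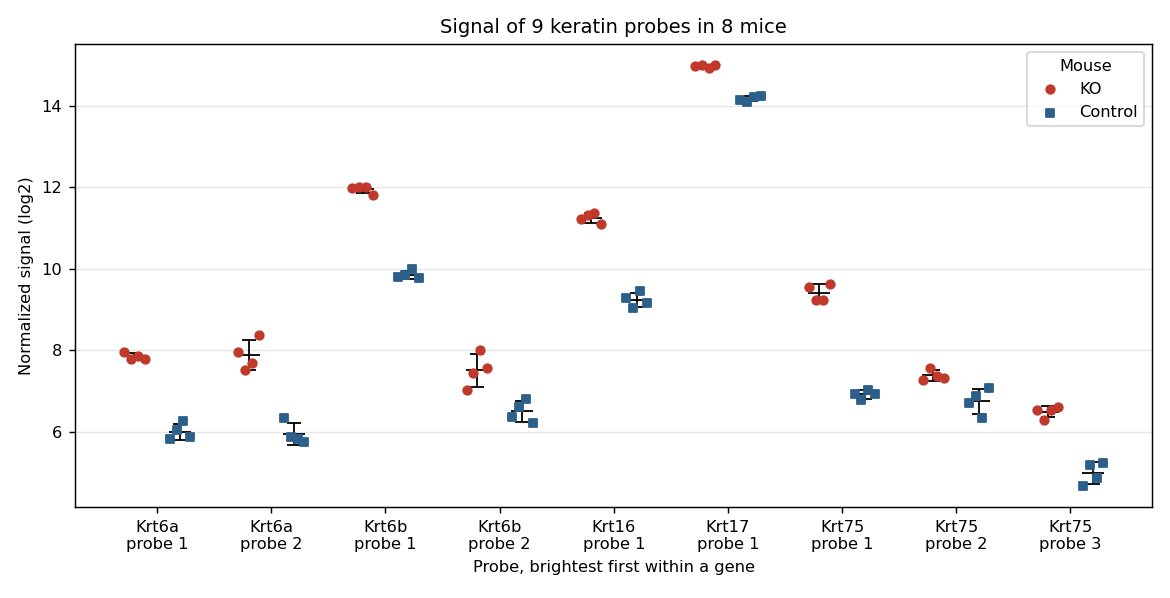
Normalized log2 signal of each of the 9 member probes in every mouse, with KO to the left of Control at each probe. Circles are single KO mice, squares are single Control mice, and bars show the mean ± SD of 4 mice. The KO mice lie above the Control mice at all 9 probes.

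Krt6a and Krt6b, type II keratins induced at wound edges, were both higher in KO skin. The brightest probe of Krt6b read 11.99, 12.01, 11.99 and 11.80 in KO mice, against 9.79, 9.84, 9.99 and 9.77 in Control mice. The groups lay far apart and the mice within each were close together, with an SD of 0.0995 in KO and 0.101 in Control skin. Krt6b rose by 2.10 ± 0.08 (SE, 95% confidence interval 1.91 to 2.28), a 4.28-fold increase (adjusted p = 3.36e-08). A second, dimmer Krt6b probe read 7.02, 7.43, 8.0 and 7.56 in KO mice, against 6.37, 6.61, 6.79 and 6.22 in Control mice. It rose by 1.01 ± 0.20 (adjusted p = 0.00161), with no overlap between the groups but a wider scatter than the first probe.

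For Krt6a the brightest probe read 7.94, 7.79, 7.86 and 7.79 in KO mice, against 5.82, 6.03, 6.26 and 5.88 in Control mice. The rise was 1.85 ± 0.10 (95% confidence interval 1.62 to 2.08), or 3.60-fold (adjusted p = 3.36e-07). The other Krt6a probe read 7.95, 7.51, 7.68 and 8.37 in KO mice, against 6.32, 5.87, 5.83 and 5.74 in Control mice, and it rose by 1.94 ± 0.19 (adjusted p = 1.73e-05). Both Krt6a probes were dim, with raw signals of the first at 337.8 to 394.9 in KO skin and 158.6 to 195.5 in Control skin, where array medians ran up to 193.6. Their changes therefore depended on how background was removed, and without any background correction the first probe rose by 0.93. Krt6a and Krt6b encode nearly identical proteins, and a signal of 1 gene on the probe of the other was not tested, as probe sequences were not used here.

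The type I keratins Krt16 and Krt17 differed in the size of their increase. Krt16, a keratin of wound edges and of the outer root sheath, read 11.22, 11.31, 11.36 and 11.09 in KO mice, against 9.28, 9.04, 9.45 and 9.17 in Control mice. It rose by 2.01 ± 0.10 (95% confidence interval 1.78 to 2.24), or 4.03-fold (adjusted p = 2.10e-07). Krt17, which marks the outer root sheath and other appendage epithelium as well as wounded epidermis, read 14.97, 14.99, 14.93 and 14.99 in KO mice, against 14.14, 14.10, 14.22 and 14.23 in Control mice. Its 2 groups did not overlap and its scatter was small in KO skin, but the rise of 0.80 ± 0.06 was 1.74-fold (95% confidence interval 0.65 to 0.94, adjusted p = 4.39e-06). Krt17 was close to the top of the array, with raw signals of 30470.2 to 34454.6 in KO skin and 16056.6 to 21436.8 in Control skin. The brightest probes of the arrays read 39563.5 to 46124.8 raw. How far the scale was compressed near this limit was not tested. Krt17 alone took 0.144 to 0.155% of the summed raw signal in KO skin, against 0.0870 to 0.0932% in Control skin.

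Krt75, the companion layer keratin, had the largest change among the 5 genes at its brightest probe, except without background correction, where Krt6b and Krt16 rose more. That probe read 9.56, 9.24, 9.22 and 9.61 in KO mice, against 6.93, 6.77, 7.02 and 6.93 in Control mice. The rise was 2.49 ± 0.11 (95% confidence interval 2.24 to 2.74), or 5.63-fold (adjusted p = 7.78e-08), while without background correction this probe rose by 1.74. A dimmer probe read 7.26, 7.57, 7.35 and 7.32 in KO mice, against 6.70, 6.88, 6.34 and 7.07 in Control mice, and rose by 0.63 ± 0.15 (adjusted p = 0.00427). Its highest Control mouse came within the distance between replicates of its lowest KO mouse. Krt75 probe 3 read 6.53, 6.29, 6.53 and 6.59 in KO mice, against 4.66, 5.18, 4.85 and 5.22 in Control mice, and rose by 1.51 ± 0.13 (adjusted p = 8.05e-06). It was detected on all 4 KO arrays but only on 2 Control arrays, with Control detection p-values of 0.315, 0.0426, 0.140 and 0.0451, while the other 8 member probes were detected on all 8 arrays. All 3 Krt75 probes rose, by amounts that differed between them.

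The promoter of Krt75 is shown because the companion layer keratin had the largest fitted change, and it is the only one of the 5 promoters found in the RefSeq table used here. The stretch holds the 250 bases before the start site on the minus strand, chr15:101573905-101574154 of GRCm38.p6, written 5′ to 3′. No letter is capitalized, since none of the 7 motifs searched was found.
Krt75 promoter: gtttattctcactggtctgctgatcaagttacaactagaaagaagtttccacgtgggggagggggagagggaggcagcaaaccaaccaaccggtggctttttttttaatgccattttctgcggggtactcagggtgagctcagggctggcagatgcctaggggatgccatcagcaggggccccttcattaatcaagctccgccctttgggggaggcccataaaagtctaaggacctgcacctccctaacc
Motifs were searched on both strands of the 300-base window from 250 bases before to 50 after the start. The letters were TGANTCA for AP-1, TGACNNNGC for the antioxidant response element core, TTCNNNGAA for STAT, CTTTGA for LEF/TCF, ACCACCC for GLI, TATAAA for the TATA box and TTGCNNAA for CEBP. Among 32851 mouse promoters of the same length AP-1 occurred in 7.81%, the antioxidant response element core in 12.4%, STAT in 8.3%, LEF/TCF in 16%, GLI in 4.61%, the TATA box in 13.6% and CEBP in 10.8%.

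The amounts of change were then compared between members, gene by gene at the brightest probe and between probes of the same gene. This gave 15 pairs, and each was tested by exact permutation, two-sided, over the 70 assignments of mice to groups, which cannot give a p below 0.0286. After adjustment over the 15 pairs 12 were called, each with an adjusted p of 0.0357. At the brightest probes Krt17 rose less than each of the other 4 genes, though without background correction its difference from Krt6a shrank to 0.14 and was not called. This order depends on the probe, since the second Krt75 probe rose by 0.63, less than the 0.80 of Krt17. Krt17 read near the top of the scale, and how far its change was compressed there was not tested. The change of Krt6b exceeded that of Krt17 by 1.30 and the change of Krt16 exceeded it by 1.22. These differences ran from 1.17 to 1.41 and from 1.03 to 1.35 over the other settings tried. Each lost its call only without Control mouse 3 or without Control mice 1 and 3 together (adjusted p = 0.0536 and 0.10). Without Control mice 1 and 3 the smallest possible p is 0.0667, so no pair could be called whatever its difference. Without Control mouse 3 the smallest possible p is 0.0286, and the adjusted p depends on how many of the 15 pairs reach it. Krt6b and Krt16 were not told apart, with a difference of 0.09 (95% confidence interval −0.09 to 0.27, adjusted p = 0.337). Krt6a and Krt16 were not told apart either (−0.16, 95% confidence interval −0.44 to 0.12, adjusted p = 0.198), but with an offset of 50 or without background correction Krt6a rose less than Krt16 by 0.52 and 0.89 and the pair was called.

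Differences that involve the dimmer probes were less settled. At its brightest probe Krt75 exceeded Krt6b by 0.40 and Krt16 by 0.48. The dimmer Krt75 probes rose by 0.63 and 1.51, less than the brightest probes of Krt6b and Krt16. Without background correction both orders at the brightest probes turned round. Krt6b was then above Krt75 by 0.23 and Krt16 above Krt75 by 0.08, and neither was called. With an offset of 50 in place of 16 the differences shrank to 0.15 and 0.25 and were not called, and both calls were also lost when any 1 Control mouse was left out (adjusted p of 0.0989 to 0.132). Krt6a rose less than Krt6b by 0.25 (95% confidence interval 0.08 to 0.42), while in the values normalized by the authors it rose more by 0.05 and the pair was not called. That call was also lost when the arrays were scaled to equal medians (adjusted p = 0.107) and without KO mouse 2 or KO mouse 3 (adjusted p = 0.0714 each). Within genes the first Krt6b probe exceeded the second by 1.09, and the first Krt75 probe exceeded the second by 1.86 and the third by 0.99. The probes of Krt6a differed by 0.09 and were not told apart (adjusted p = 0.686). With Control mouse 3 left out, none of the 15 pairs passed after adjustment.

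**Figure D2:**
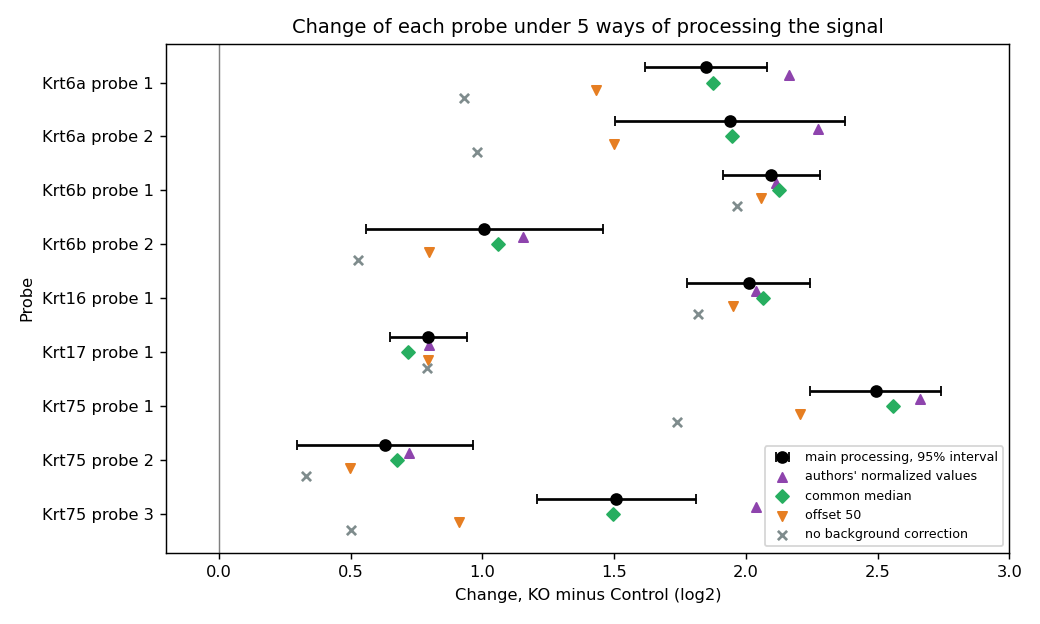
Log2 change, KO minus Control, of each of the 9 member probes under 5 ways of processing the signal; the lines on the main values are 95% confidence intervals. All points lie above 0, and Krt16 and Krt17 move little between settings while the dim probes of Krt6a and Krt75 move more.

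**Figure D3:**
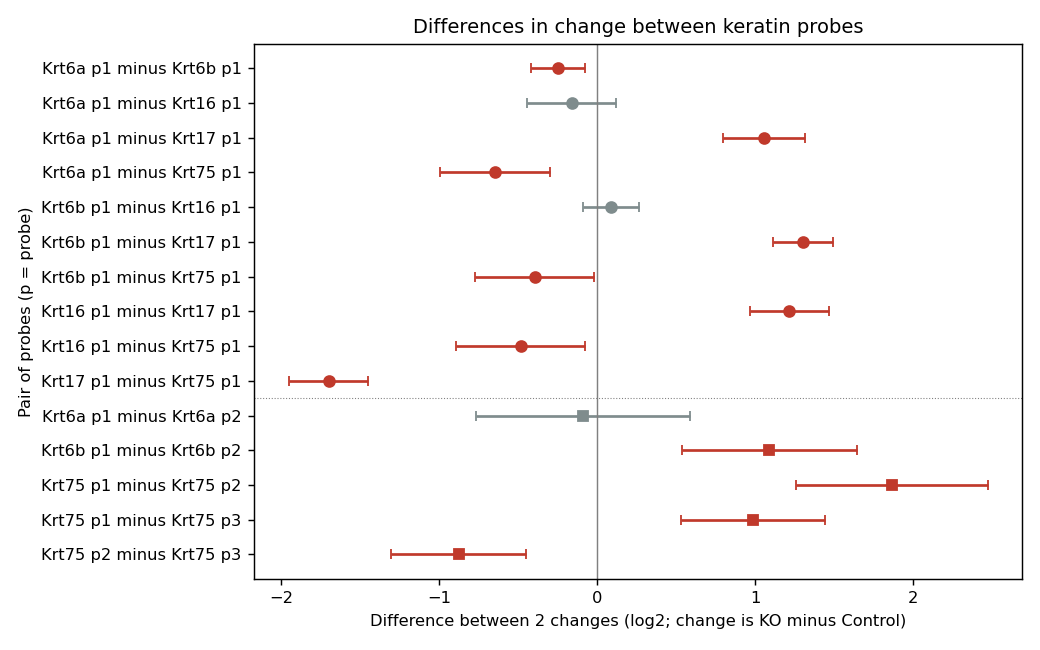
Difference in log2 change between 2 members (circles) or between 2 probes of a gene (squares), with 95% confidence intervals; red marks the 12 pairs called by the exact permutation test and grey the 3 that were not. The pairs with Krt17 lie farthest from 0 among the gene pairs.

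Other keratins of skin moved in both directions. A list of 16 measured keratins of epidermis and simple epithelium, without the members, had 5 higher and 6 lower in KO skin, with a median change of −0.14, where 29.4% of all tested genes were called higher and 34.4% lower. Krt24, a type I keratin, read 4.83, 5.08, 4.74 and 5.36 in KO mice, against 9.82, 9.83, 9.82 and 9.76 in Control mice. It fell, but only 1 KO array detected it, so the size of its fall is not well determined. Krt15, a keratin of basal cells and of the bulge of the follicle, fell by 1.68 ± 0.09, and Krt77, a type II keratin of differentiated epidermis, fell by 1.38 ± 0.10. Krt8 rose by 1.29 but was detected on only 1 Control array. Krt79, a keratin of the upper follicle and sebaceous duct, rose by 0.99 ± 0.08, close to the rise of Krt17, and Krt18, the partner of Krt8, was detected on no Control array and was at least 2.07-fold higher in KO skin. Both were named after their values were seen. Krt5, the basal partner of Krt14, fell by 0.30 ± 0.08 (adjusted p = 0.011). Krt14 (0.11, adjusted p = 0.18), Krt1 (−0.17, adjusted p = 0.062) and Krt10 (−0.10, adjusted p = 0.16) did not pass the test. The changes of Krt6a, Krt6b and Krt75 exceeded that of the type II keratin Krt5 by 2.14, 2.39 and 2.79. The changes of Krt16 and Krt17 exceeded that of the type I keratin Krt14 by 1.90 and 0.69. These pairs were chosen after the values were seen and carry no test.

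Keratins made deep in the growing follicle were far higher in KO skin. All 5 measured inner root sheath keratins rose, with a median change of 7.86 (7.73 with the gene that no Control array detected at its bound), and all 7 measured hair shaft keratins rose, with a median of 8.35. The summed linear signal of the inner root sheath keratins was 102171 to 105192 in KO mice and 157.1 to 1404.9 in Control mice, and that of the hair shaft keratins was 88363.6 to 92837.6 in KO mice and 209.7 to 603.7 in Control mice. Krt72, Krt35 and Krt82 were detected on no Control array, so their rise has only a lower bound. Krt72, of the inner root sheath, was at least 162.6-fold higher in KO skin, and of the hair shaft keratins Krt35 was at least 171.4-fold and Krt82 at least 29.9-fold higher. Among those that some Control arrays detected, Krt26 rose by 7.73 (2 Control arrays), Krt73 by 8.10 (2), Krt71 by 8.41 (3), Krt84 by 6.10 (3) and Krt31 by 8.35 (1). The bound sets the KO mean against a Control floor, which on each array is the lowest detected signal or, if higher, the signal of the probe. The part of these follicle keratins in the rise of the members was not tested.

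**Figure D4:**
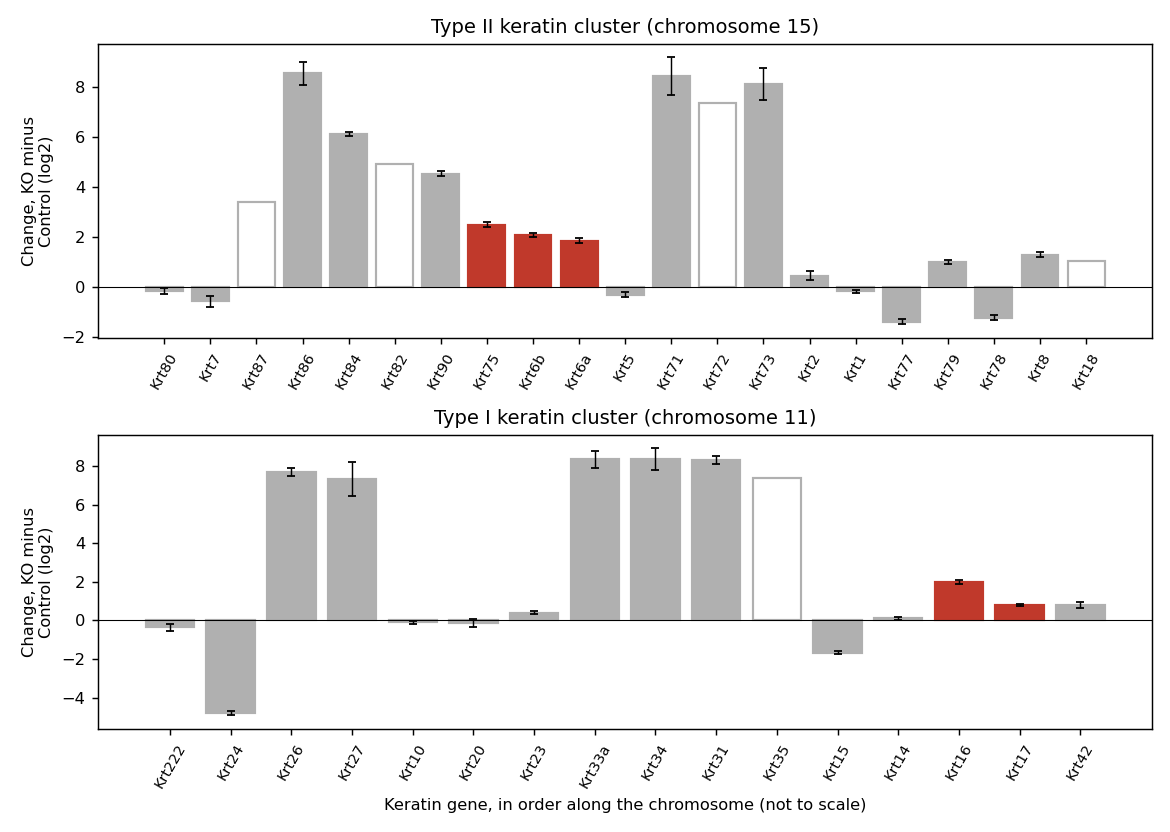
Log2 change, KO minus Control, of each tested keratin gene in its order along chromosomes 11 and 15; red bars are the 5 members and error bars are SE. An open bar is a lower bound for a gene that no Control array detected, and both clusters hold bars above and below 0.

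The members lie in 2 clusters of keratin genes. In the RefSeq order Krt75 follows Krt90 on chromosome 15 and is followed by a predicted gene, Krt6b, Krt6a and Krt5, while Krt14, Krt16, Krt17 and Krt42 follow each other on chromosome 11. The flanking genes behaved differently from each other. Krt5 and Krt14 are given above, Krt42 rose by 0.82 ± 0.15 with 2 Control arrays detecting it, and Krt90 rose by 4.53 ± 0.11 with 1. Of the other 14 keratins tested on chromosome 11, 8 were higher and 2 lower in KO skin, and of the other 18 on chromosome 15, 12 were higher and 4 lower. Over all tested genes 29.4% were called higher and 34.4% lower. The cluster counts include the inner root sheath and hair shaft keratins given above.

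Spread between mice of 1 genotype differed between the members and some follicle keratins. In Control mice the SD of the member probes was 0.0634 to 0.310, while it was 0.276 to 2.22 for the inner root sheath keratins and 0.0628 to 1.38 for the hair shaft keratins. In KO mice it was 0.0289 to 0.401 for the member probes, 0.030 to 0.268 for the inner root sheath keratins and 0.0272 to 0.271 for the hair shaft keratins. Krt27, an inner root sheath keratin named after its values were seen, read 14.85, 14.86, 14.81 and 15.05 in KO mice, against 9.58, 5.56, 9.36 and 5.69 in Control mice, and Krt71 read 15.31, 15.26, 15.31 and 15.26 in KO mice, against 8.50, 5.03, 8.50 and 5.48 in Control mice. Control mice 1 and 3 were thus well above Control mice 2 and 4 for these keratins. Among the members Control mouse 3 was highest at the brightest probe of Krt6a, Krt6b, Krt16 and Krt75, while Control mouse 4 was highest for Krt17. Without Control mice 1 and 3 all 9 member probes stayed called, with changes of 0.40 to 2.55 and adjusted p up to 0.0216. The second Krt75 probe then rose by 0.40 where it had risen by 0.63 with all mice.

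**Figure D5:**
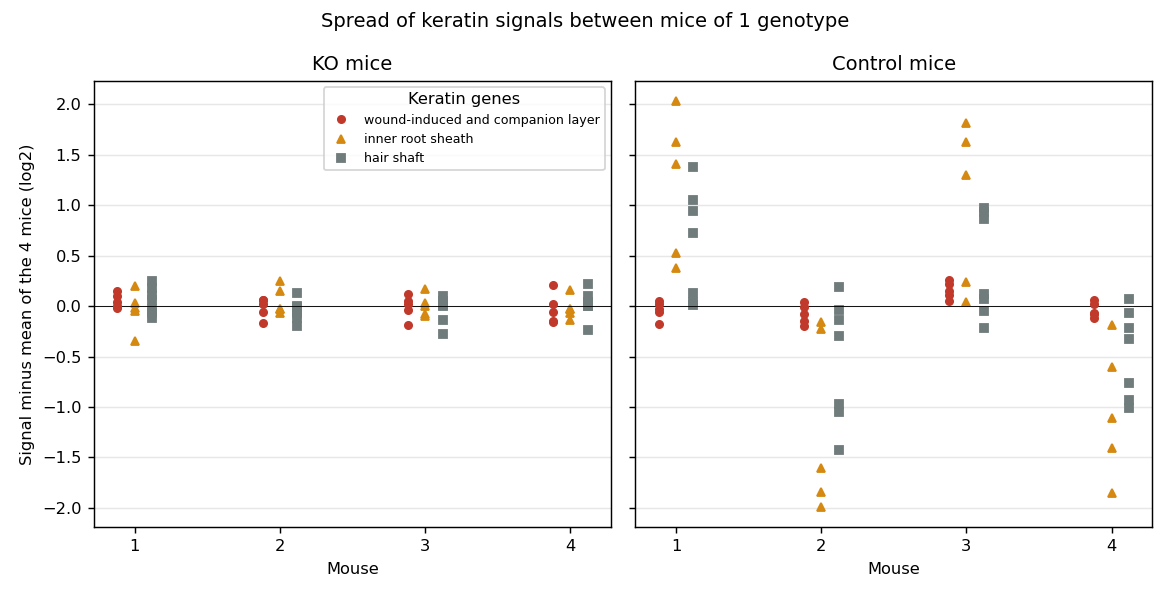
Signal of each keratin gene minus its mean over the 4 mice of the same genotype (log2), with KO mice in the left panel and Control mice in the right. Circles are the 5 members, triangles inner root sheath keratins and squares hair shaft keratins; several inner root sheath and hair shaft keratins spread over more than 2 log2 units between Control mice, and others spread no more than the members.

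Genes known to be switched on beside these keratins in wounded or hyperproliferative epidermis did not move as 1 group. Of 32 measured genes 19 were higher and 7 lower in KO skin, with a median change of 0.59 (0.58 with 2 genes at their bound). Over all tested genes 29.4% were called higher and 34.4% lower, the shares to set beside this and each list below. Sprr2e, Sprr3, Lce3a, Ereg, Mmp10 and Ptgs2, also on the wound list, were detected on no array of either group. Gjb2, a gap junction protein, read 13.17, 13.24, 13.14 and 13.33 in KO mice, against 8.33, 8.01, 8.12 and 7.75 in Control mice, and rose by 5.17 ± 0.12. Sprr1a and Sprr1b, which are cross-linked into the cornified envelope, rose by 3.0 ± 0.11 and 3.48 ± 0.13, and Epgn, a ligand of the EGF receptor, rose by 2.02 ± 0.08. Sprr2d (0.34, adjusted p = 0.16) and Sprr2a1 (−0.10, adjusted p = 0.54), named after their values were seen, did not pass the test. Related genes of the list moved in both directions. The metalloprotease Mmp9 fell by 1.32 ± 0.08 and Mmp13 rose by 0.38 ± 0.10. Of the cytokines released by damaged keratinocytes Il33 fell by 1.83 ± 0.12, while Il1a rose by 1.17 ± 0.14 with 3 Control arrays detecting it and Il1b rose by 0.87 ± 0.10. These 5 were named after their values were seen.

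Genes of the companion layer and outer root sheath, with the members left out, were 11 higher and 3 lower of 16 measured, with a median change of 0.92. Calhm4 was not detected on any Control array and was at least 59.0-fold higher in KO skin. Fgf5, the growth factor that ends hair growth, rose by 3.34 ± 0.12 with 3 Control arrays detecting it, and Cdh3, the cadherin of basal and matrix cells, rose by 1.75 ± 0.07. Cdh3 read 10.15, 10.13, 10.23 and 10.31 in KO mice, against 8.44, 8.50, 8.45 and 8.44 in Control mice, so the groups were well apart. Gjb2, also a gene of these layers, is given above, and the list shares Krt5, Krt14, Krt7 and Krt79 with the epidermal keratins. Tnc is on the wound list as well, and Dsg3 is also counted among the filament partners below. The wound list also shares Tgm1 with those partners, and Hbegf, Tgfa, Fosl1, Il1a and Il1b with the keratin regulators below. The counts of these lists are therefore not independent.

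Among factors known to act on these keratin genes 14 were higher and 6 lower of 31 measured, with a median change of 0.18. Tfap2a, a transcription factor of keratinocytes, read 11.68, 11.71, 11.65 and 11.62 in KO mice, against 9.83, 9.89, 9.93 and 9.92 in Control mice, and rose by 1.77 ± 0.06. Fos, a part of AP-1, fell by 1.54 ± 0.09. Lef1 and Foxn1, transcription factors of the hair follicle, were detected on no Control array and were at least 2.64-fold and 2.90-fold higher in KO skin. Nfe2l2, the factor of the antioxidant response (0.18, adjusted p = 0.21), and Egfr, the EGF receptor (0.10, adjusted p = 0.30), did not pass the test. Both were named after their values were seen.

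Genes for proteins that bind, cross-link or anchor these filaments were mostly higher in RNA. Of 19 measured genes 16 were higher and 3 lower in KO skin, with a median change of 0.96. Tgm3, a transglutaminase of the hair follicle and cornified layer, was on no Control array and was at least 9.40-fold higher in KO skin. Sfn, the 14-3-3 protein that binds Krt17, rose by 2.15 ± 0.07, and read 12.91, 12.94, 12.85 and 12.86 in KO mice, against 10.86, 10.63, 10.67 and 10.79 in Control mice. Dsg3, a desmosomal cadherin, rose by 1.50 ± 0.10 and Tgm1, a transglutaminase of the cornified envelope, by 1.76 ± 0.12. The 3 that fell were Tgm5 by 1.14 ± 0.10, another transglutaminase, and the filament linkers Plec by 0.60 ± 0.07 and Eppk1 by 0.17 ± 0.07. They were named after their values were seen.

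Markers of other cell types moved with genotype as well. All 7 melanocyte genes were higher in KO skin, with a median change of 3.53 (3.10 with 2 genes at their bound) and summed signals of 10481.2 to 11234.4 in KO and 792.9 to 906.0 in Control mice. All 6 measured proliferation genes rose, with a median of 1.98 and sums of 8143.4 to 8336.0 in KO and 1962.4 to 2226.9 in Control mice. Of 4 sebaceous gland genes 3 were higher and none lower. All 10 skeletal muscle genes fell, with a median of −1.86 and sums of 91221.9 to 93778.0 in KO and 221756 to 227870 in Control mice. All 8 fibroblast genes, 6 of 7 endothelial genes and all 7 macrophage genes fell, with medians of −0.99, −1.31 and −0.81. Genes of neutrophils, cells that enter wounds, were 1 higher and 2 lower of 7. S100a8, also on the wound list, was the higher gene (1.15), while Csf3r and Mpo fell. S100a9, on both lists too, did not pass the test (−0.17, adjusted p = 0.216). They were named after their values were seen. The neutrophil genes Ngp and Cxcr2 were detected on no array of either group. T cell genes were 0 higher and 1 lower of 5. The part of these shifts in the rise of the members was not tested.

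The genes with the most similar profile were taken as those with the smallest root mean square difference over the 8 arrays, after each gene's mean was removed. Slc7a5, a transporter of amino acids, was among the 3 closest to both Krt16 (0.0921) and Krt6b (0.0726). Closest to Krt6b were Mex3a (0.0474) and Rab15 (0.0660), and, with the members left out, next to Slc7a5 for Krt16 were Steap1 (0.0967), which no Control array detected, and St14 (0.103), a membrane protease. Krt17 lay closest to Lypd3 (0.0384), Vdr (0.0435), the vitamin D receptor, and Vars (0.0463). The nearest genes were farther off for Krt6a, with H3c1 (0.0991), a histone, Vangl2 (0.114) and Car12 (0.115), and for Krt75, with H2ac12 (0.133), another histone, Fads3 (0.143) and Pbk (0.162). Since the genotypes form 2 clusters, such distances mainly rank genes by how alike their change was. With the members counted, Krt6b held rank 3 from Krt16, and Krt16 rank 13 from Krt6b. All other pairs of members lay farther apart. Krt75 held ranks 162 to 399 from Krt6a, Krt6b and Krt16. From Krt17 the other members held ranks 6182 to 8929 of 10349 genes.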

How the data were processed

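Total RNA of each whole back skin sample was hybridized to an Illumina MouseRef-8 bead array, 1 array per mouse. The authors deposited the mean bead intensity of each probe, not background-subtracted, and a detection p-value per probe and array per the file headers. The submitters' processing notes name GenomeStudio 2011.1. A second deposited set of intensities was background-subtracted and normalized by the authors, with a median of 39.1 on each array. The sources used here do not state its method. It served as an alternative only. No aligner or genome build applies to these values.

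Raw intensities were background-corrected, quantile normalized and then log2-transformed with the neqc function (limma 3.58.1, R 4.3.3). The added offset of 16 shrinks the changes of dim probes. Testing required a detection p below 0.05 on 4 or more of the 8 arrays. Genotype was fitted with lmFit and eBayes, and p-values were adjusted by Benjamini-Hochberg over all 15120 tested probes. Symbols came from the platform annotation, updated through the RefSeq gene table of GRCm38.p6; 23978 probes had 1 symbol, 1719 had none, and 23962 matched. The brightest probe over all arrays stood for a gene in lists. The number of arrays limits the precision.

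Gene lists were written from general knowledge of skin, and in each list of keratins, wound genes, companion layer genes, regulators and partners the genes with the 4 smallest adjusted p were named, beside Med1, the members, a fixed set of epidermal keratins and the 3 genes closest in profile to each member. The members and lists were chosen with earlier results of these data known. Differences between members were tested by exact permutation. Alternatives were the authors' values raised to a floor of 16, scaling to a common median, no background correction, an offset of 50, other detection filters, a variance trend with robust estimation, the methods' t-test, a replicate block and leaving out mice. The labels do not say whether same-numbered mice were paired, and the paper describes its controls as Cre-negative littermates.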

Additional observations from a re-analysis of the deposited data

Results flagged for a closer look

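Krt6b probe 1 in KO mouse 4 read 11.80 on the log2 scale and stood apart from the other 3 KO mice, which read 11.99 to 12.01. The distance to the nearest of them was 0.907 of the whole range of the 4 mice. It was the only such value in 48 groups of 4 mice that were screened, and chance gives about 1 in 20 groups.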

How the results depend on the processing

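All 9 member probes stayed higher in KO skin and below an adjusted p of 0.05 in each of the 170 values obtained under the alternatives for which they could be tested, with a highest adjusted p of 0.0216. The methods' t-test at its unadjusted threshold of 0.005 called 7 of them, missing the second probes of Krt6b and Krt75, and all 9 after Benjamini-Hochberg adjustment. With the replicate block 9192 probes were called, against 9473 without it, and all 9 member probes were among them; same-numbered mice correlated with r of −0.107 to 0.0587, and the block changed no call of a member. Without 1 mouse the probes called ranged from 8794 to 8986.

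Dim probes moved most with background removal. Krt6a probe 1 ran from 0.93 without background correction to 2.16 in the authors' values, and Krt75 probe 3 from 0.50 to 2.04. The brightest Krt75 probe ran from 1.74 to 2.66 between the same settings, while Krt16 stayed within 1.82 to 2.14 and Krt17 within 0.72 to 0.81. In 3 pairs called with all mice the order of change was reversed, and none of them was called in the alternative. Krt6a minus Krt6b was 0.047 in the authors' values (adjusted p = 0.704), and without background correction Krt6b minus Krt75 was 0.23 (adjusted p = 0.198) and Krt16 minus Krt75 was 0.081 (adjusted p = 0.612). The cause was not tested. Among the 3 pairs not called with all mice the sign also turned, for Krt6a minus Krt16 to 0.12 in the authors' values, for the probes of Krt6a to 0.10 without KO mouse 4 and for Krt6b minus Krt16 to −0.0060 without Control mice 1 and 3. The number of pairs called ran from 0, without Control replicate 3, to 12 when 1 mouse was left out; then the smallest p is 0.0286, and without Control mice 1 and 3 it is 0.0667, so no pair can pass. Where detection on all 8 arrays was required, fewer genes could be tested, and the genes called fell to 7 of the epidermal and simple keratins, against 11, to 1 of the inner root sheath keratins, against 5, and to 0 of the hair shaft keratins, against 7.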
